A study of Homo sapiens with 32 samples.

Results

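The miRNAs of the imprinted DLK1-DIO3 domain at 14q32 were followed through small RNA libraries of 293T cells, a human line of embryonic kidney origin. The members were chosen by name: a list of 49 miRNA genes of the domain was matched to the names of the table's rows, with or without the species prefix. Of these 49 names, 44 had a row among the 1513 miRNA rows of the table, and mir-655, mir-656, mir-665, mir-668 and mir-770 had none. A row covers a miRNA gene name and does not separate the 5p arm from the 3p arm. At least 1 count was present for 40 of the 44 rows, and mir-300, mir-337, mir-433 and mir-1193 were at 0 in all 32 libraries. Over 77753539 counts in all, a count of 0 allows a level of up to 0.0386 counts per 1000000 miRNA counts (CPM), from a limit of 3 counts that covers counting error only.

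The study asked whether losing the reported ERH binding site of DGCR8, lowering ERH, or both changed mature miRNA levels. The 4 wild-type clones were 52, 55, 57 and 67, and the 4 clones with the prime-edited DGCR8 delta103-126Q allele, a deletion at the N-terminus, were 30, 34, 42 and 43. Every clone was transiently transfected with each of 4 vectors: non-targeting control shRNA 1 or 2, or ERH shRNA 1 or 2. All cells were grown with foetal calf serum and selected with puromycin at 2 µg/ml from 24 h after transfection. Cells carrying the vector's fluorescent marker were sorted on day 5. A genotype was therefore represented by 4 clones of 1 cell line and the knockdown by cells that kept the marker for 5 days. ERH itself is not a row of a miRNA table, so the extent of its loss was not analysed here. The clone was the replicate, and the 2 libraries that a clone had in an arm (control or ERH) were added together before testing.

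DLK1-DIO3 is an imprinted domain in which the miRNAs are made from the maternally inherited chromosome as parts of long non-coding transcripts that also carry MEG3 and MEG8. Each miRNA starts as a hairpin in the primary transcript, which the Microprocessor, formed by DROSHA and DGCR8, cuts free before DICER trims it to the mature strands. ERH is a small conserved protein that binds the N-terminus of DGCR8 and has been described as helping the Microprocessor cut hairpins that are poor substrates on their own, often ones beside a better hairpin. The domain's miRNAs are known for high levels in placenta, embryo and brain. In bulk RNA such as this, fewer cells making a miRNA and less of it per cell cannot be told apart.

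The mature strands of the 4 most abundant members show what the counts belong to. They were taken from RefSeq (GRCh38.p14), and the capitals mark the seed, bases 2 to 8 from the 5′ end, which pairs with target RNAs.
miR-127-5p: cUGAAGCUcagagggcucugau
miR-127-3p: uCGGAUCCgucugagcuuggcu
miR-369-5p: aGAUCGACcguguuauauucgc
miR-369-3p: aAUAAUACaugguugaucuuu
miR-494-5p: aGGUUGUCcguguugucuucucu
miR-494-3p: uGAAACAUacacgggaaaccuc
miR-432-5p: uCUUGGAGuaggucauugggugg
miR-432-3p: cUGGAUGGcuccuccaugucu
The 8 strands have 8 different seeds, so these 4 rows do not share a seed with each other.

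Across the whole list, 91 mature names carried 80 distinct seeds, and 9 seeds were shared by 2 or more rows. Shared seeds of the tested rows are shown next, because members with one seed were counted in separate rows.
miR-381-3p: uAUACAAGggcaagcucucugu
miR-300: uAUACAAGggcagacucucucu
miR-376a-3p: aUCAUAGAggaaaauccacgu
miR-376b-3p: aUCAUAGAggaaaauccauguu
miR-376b-5p: cGUGGAUAuuccuucuauguuu
miR-376c-5p: gGUGGAUAuuccuucuauguu
miR-379-3p: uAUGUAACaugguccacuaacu
miR-411-3p: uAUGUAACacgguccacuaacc
The mir-381 row had counts in 22 of 32 libraries, whereas mir-300, whose mature strand has the same seed, had none. Reads of such near-identical strands could be split between rows by the authors' counting, so the mir-376a, mir-376b and mir-376c values are uncertain in that respect. The seed of miR-494-5p also occurs in miR-323b-5p and miR-410-5p.

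The hairpins of the 2 members with the most counts are shown as RefSeq gives them, with both mature arms in capitals. MIR127 lies at chr14:100882979-100883075 and MIR369 at chr14:101065598-101065667 (GRCh38, plus strand).
MIR127: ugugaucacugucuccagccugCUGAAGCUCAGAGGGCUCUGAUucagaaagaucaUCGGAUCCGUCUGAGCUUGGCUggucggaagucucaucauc
MIR369: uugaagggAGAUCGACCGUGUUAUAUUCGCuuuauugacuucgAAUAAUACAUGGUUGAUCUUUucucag
The MIR127 hairpin is 97 bases long with 52.6% G and C, and RNAfold gave it a minimum free energy of -40.7 kcal/mol. The MIR369 hairpin is 70 bases long with 37.1% G and C, and its value was -28.1 kcal/mol. Over the 48 hairpins of the list with a RefSeq sequence, the median was 41.9% G and C and -33.8 kcal/mol. MIR432, MIR370, MIR381 and MIR412 had no hairpin entry.

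The members were scarce in every library, and whether the few counts came from the 293T cells or from the serum they were grown with was not tested. They held 1929 counts in all, between 14 and 170 per library with a median of 40.5, while the libraries held 1318923 to 6222790 miRNA counts. Between 5 and 21 of the 44 rows had a count in a given library. The summed level ran from 6.75 to 61.3 CPM with a median of 18.8 CPM (scaled by TMM, a correction for composition). A single row at 0 in a library could still stand at up to 0.482 CPM in the deepest library and 2.27 CPM in the shallowest. For scale, mir-16, an abundant miRNA of most cells, had a median of 174743 CPM.

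A few rows made up most of the signal. The rows mir-127 with 330 counts, mir-369 with 285, mir-494 with 225 and mir-432 with 202 supplied 54.0% of all member counts. Their mean levels over the 32 libraries were 4.38, 3.70, 2.78 and 2.66 CPM, and mir-127, the highest, ranked 470th of the 1513 rows. No member had a mean of 10 CPM or more. By total counts, 8 rows had at least 100, 12 had 10 to 99, and 20 had 1 to 9. Only 11 rows had a count in at least 16 of the 32 libraries.

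The signal was uneven along the domain. The 52 hairpins of the 49 names lie on the plus strand over 214 kb of chromosome 14, from 100852390 to 101066801 (GRCh38, GENCODE 29). Gaps of over 5 kb divide them into 7 segments. The segment from MIR376C to MIR656, with 24 rows, held 804 counts or 41.7%, and the one from MIR431 to MIR136, with 5 rows, held 572 counts or 29.7%. The segment from MIR379 to MIR495, within an intron of MEG8, held 518 counts or 26.9% over 12 rows. MIR493 on its own held 31 counts, MIR370 held 4, and the segment with MIR337 held none.

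Neighbouring hairpins differed widely in their counts in some windows and less in others. The 5 hairpins from MIR431 to MIR136 span 3777 bases opposite an exon of RTL1, a paternally expressed gene that these miRNAs are antisense to. In that order the rows had 1 count for mir-431, 0 for mir-433, 330 for mir-127, 202 for mir-432 and 39 for mir-136. MIR432 and MIR136 are only 125 bases apart. At the distal end, the 4 hairpins from MIR409 to MIR410 lie within 692 bases, and their rows had 91 counts for mir-409, 9 for mir-412, 285 for mir-369 and 3 for mir-410. High and low rows were therefore found side by side in both windows. By contrast, the rows of the 3 hairpins from MIR379 to MIR299, within 1791 bases, had 48, 102 and 109 counts. From MIR376C to MIR300, over 1756 bases, the rows had 104 counts for mir-376c, 18 for mir-376a, 13 for mir-654, 60 for mir-376b and 0 for mir-300. The mir-376a row covers both MIR376A2 and MIR376A1. All these are counts of different sequences, and whether they follow the output of each hairpin was not tested.

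**Figure D1:**
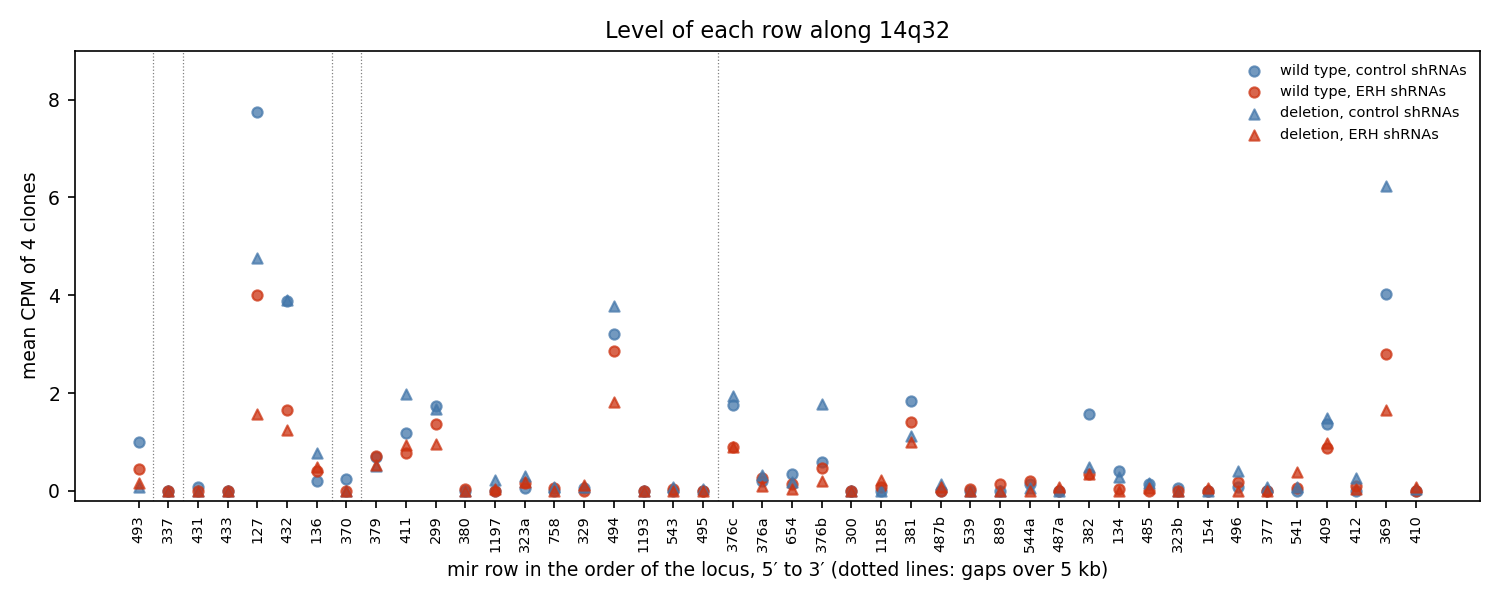
Mean level (CPM over 4 clones, y axis) of each of the 44 rows in the order of the locus (x axis), with wild-type groups as circles, deletion groups as triangles, control shRNAs in blue and ERH shRNAs in red. The rows mir-127, mir-432, mir-494 and mir-369 stand above the others, which lie at or below about 2 CPM in every group.

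With ERH knockdown 3 of the 4 most abundant members were lower relative to the other rows. The question is what lowering ERH did within the same clone, and all 16 sums entered this fit with the clone as a block. The rows mir-127, mir-369 and mir-432 fell under the edgeR quasi-likelihood test with Benjamini-Hochberg adjustment over all 667 rows tested, and 6 further members that could be tested did not pass. The 3 of 9 tested members compare with 36.6 percent of all tested rows called in either direction and 16.5 percent called lower, so their share in either direction was close to the background. All 9 had an estimate below 0, beside 46.2 percent of all rows, with a median of -0.91 on the log2 scale against 0.06 over all rows. Rows entered the test on their counts, and mir-376b, mir-299 and mir-376c were highest in control sums. For mir-376b a control sum held up to 13 counts and an ERH sum up to 6. Such a row can enter through the control arm alone, which favours an estimate below 0. The shared sign was therefore not read as a result, and rows of the same domain are not independent. The other 35 rows were too low for any test.

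The summed level of the 44 rows shows the pattern clone by clone. With control shRNAs it was 43.6, 39.4, 11.6 and 35.9 CPM in wild-type clones 52, 55, 57 and 67. With ERH shRNAs it was 15.0, 18.9, 10.4 and 37.9 CPM in the same clones. In deletion clones 30, 34, 42 and 43 it was 23.6, 57.3, 41.3 and 11.01 CPM with control shRNAs and 7.26, 11.8, 22.3 and 15.5 CPM with ERH shRNAs. Clones 57 and 43 were already low under control shRNAs, and the arms overlapped within each genotype. The sum was lower with ERH shRNAs in 6 of 8 clones, and clones 67 and 43 were the exceptions. The mean log2 change was -0.86 ± 0.93 (SD, n = 8 clones, after adding 0.5 CPM), smaller than the spread between clones.

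The group means of that sum were 32.6 ± 14.3 CPM in wild type with control shRNAs and 20.5 ± 12.1 CPM with ERH shRNAs (SD, n = 4). In the deletion clones they were 33.3 ± 20.3 and 14.2 ± 6.35 CPM. Scaled to the spike-in RNAs, the wild-type means were 25.5 and 25.7 CPM, so the lower mean in wild type was absent on that scale. The deletion means were 33.1 and 16.5 CPM on the spike-in scale.

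The row with the most counts was mir-127, whose strands are known for high placental expression. With control shRNA 1 it had 21, 9, 2 and 13 counts in clones 52, 55, 57 and 67, and 5, 28, 1 and 4 in clones 30, 34, 42 and 43. With control shRNA 2 it had 12, 16, 5 and 35 counts in the wild-type clones and 11, 26, 23 and 3 in the deletion clones. Clone 42 thus gave 1 count in one control library and 23 in the other. With ERH shRNA 1 the counts were 9, 6, 1 and 31 in wild type and 2, 0, 16 and 6 in the deletion clones. With ERH shRNA 2 they were 14, 5, 11 and 6, and 0, 6, 0 and 3. In 3 of the 32 libraries, all deletion clones with an ERH shRNA, mir-127 was at 0.

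Summed per clone, mir-127 stood at 8.22, 6.70, 2.63 and 13.5 CPM in wild-type clones 52, 55, 57 and 67 with control shRNAs, and at 5.40, 2.92, 1.46 and 6.21 CPM with ERH shRNAs. In clones 30, 34, 42 and 43 it went from 3.20, 9.35, 5.36 and 1.17 CPM to 0.454, 1.03, 3.24 and 1.53 CPM. It was lower in 7 of 8 clones, with clone 43 the exception, although the arms overlapped between clones. The fitted change over all clones was -1.18 ± 0.34 on the log2 scale (SE, adjusted p = 0.0111).

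For mir-432, whose hairpin follows MIR127 on the same strand, the control values were 7.22, 4.29, 0.376 and 3.64 CPM in wild type and 1.40, 7.96, 5.59 and 0.667 CPM in the deletion clones, in the same clone order. With ERH shRNAs they were 1.41, 1.86, 0.854 and 2.52 CPM, and 0.227, 0.857, 2.84 and 1.02 CPM. Levels were lower in 6 of 8 clones, and clones 57 and 43, the lowest under control shRNAs, were higher. The fitted change was -1.24 ± 0.44 (SE, adjusted p = 0.0306). Per library, control shRNA 1 gave 10, 12, 1 and 3 counts in wild type and 3, 23, 15 and 4 in the deletion clones. Control shRNA 2 gave 19, 4, 0 and 10, and 4, 23, 10 and 0. The ERH shRNA 1 libraries had 4, 5, 2 and 11, and 0, 3, 11 and 5 counts, and those of ERH shRNA 2 had 2, 2, 5 and 4, and 1, 2, 3 and 1. No ERH shRNA library had more than 11 counts of mir-432, while both control libraries of clone 34 had 23.

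For mir-369, near the distal end of the domain, the control values were 4.48, 5.09, 2.63 and 3.92 CPM in wild type and 5.00, 9.87, 9.39 and 0.667 CPM in the deletion clones. With ERH shRNAs they were 0.705, 1.86, 1.22 and 7.38 CPM, and 1.13, 0.514, 2.23 and 2.72 CPM. The row was lower in 6 of 8 clones and higher in clones 67 and 43. The fitted change was -1.27 ± 0.48 (SE, adjusted p = 0.0431). Counts per library were 11, 2, 6 and 1 in wild type and 3, 24, 21 and 2 in the deletion clones with control shRNA 1, and 7, 17, 1 and 13, and 22, 33, 21 and 2 with control shRNA 2. With ERH shRNA 1 they were 1, 2, 5 and 26, and 0, 3, 11 and 3, and with ERH shRNA 2 they were 2, 5, 5 and 18, and 5, 0, 0 and 13. The 2 ERH libraries of clone 67 were both above those of every other wild-type clone.

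These 3 calls rested on few counts and on the scaling. With scaling by the spike-in RNAs or by total miRNA counts none of the 3 passed, and the mir-127 adjusted p was 0.186 and 0.0545. The spike-in and total scalings moved the median of all rows from 0.06 to 0.52 and 0.33, and the member median to -0.54 and -0.64. The split of all calls moved from 110 lower and 134 higher to 22 and 233 with the spike-in RNAs, and to 36 and 210 with total counts. Only mir-127 was left when clone 30, 34, 42, 52 or 55 was omitted.

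**Figure D2:**
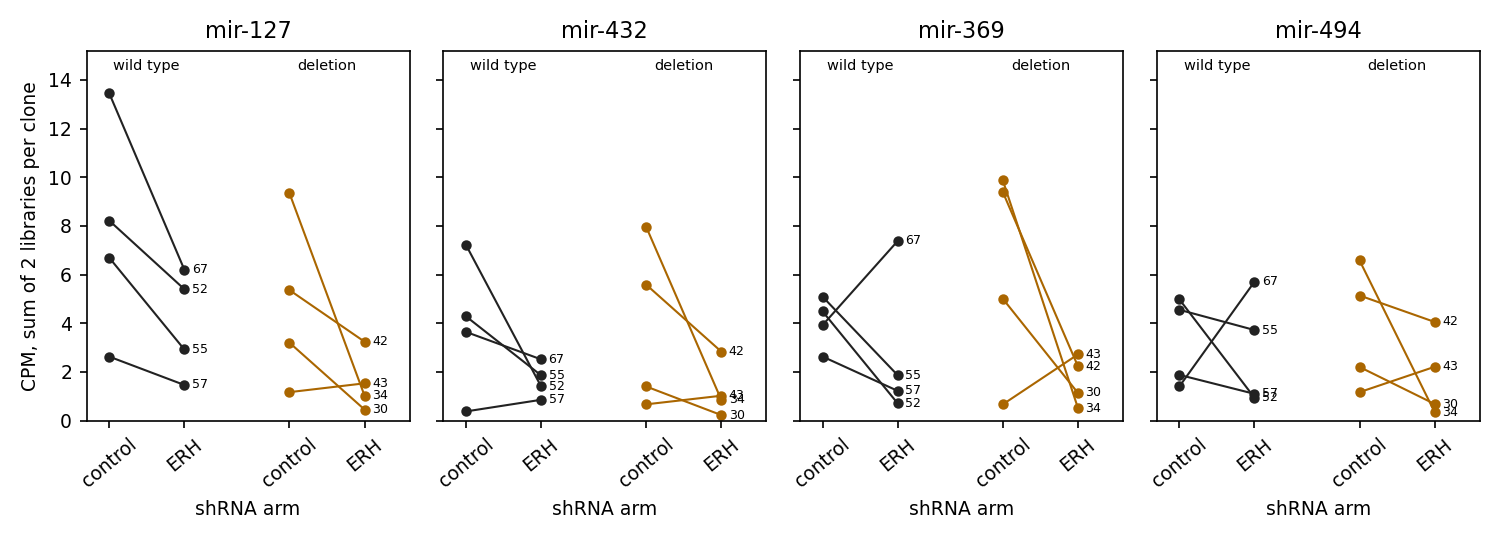
Level (CPM of the summed libraries of an arm, y axis) of mir-127, mir-432, mir-369 and mir-494 with control or ERH shRNAs (x axis), each line 1 clone, wild type in black and deletion in brown. For mir-127 the line goes down in 7 of 8 clones, and for the other rows in 6 of 8.

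The remaining tested members had lower estimates that did not pass. The row mir-494 had a log2 change of -0.68 ± 0.48 (SE, adjusted p = 0.285). Its control libraries had 9, 8, 0 and 1 counts in wild type and 4, 21, 5 and 7 in the deletion clones with shRNA 1, and 11, 9, 5 and 4, and 7, 17, 18 and 0 with shRNA 2. For ERH shRNA 1 it had 2, 8, 1 and 34, and 2, 1, 19 and 7 counts, and with ERH shRNA 2 it had 2, 6, 8 and 0, and 1, 1, 1 and 6. The single library of clone 67 with ERH shRNA 1 held the most counts, and its partner with ERH shRNA 2 held none.

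The other 5 tested rows held 60 to 109 counts over all libraries. Their log2 changes were -0.56 ± 0.50 for mir-299, -0.91 ± 0.58 for mir-376c, -0.17 ± 0.54 for mir-381, -0.83 ± 0.54 for mir-411 and -1.54 ± 0.80 for mir-376b (SE). The mir-381 estimate was above 0 with the spike-in and total scalings, at 0.31 and 0.10. Their adjusted p-values lay between 0.134 for mir-376b and 0.846 for mir-381.

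In counts per library, mir-299 had 2, 8, 0 and 1 in wild type and 3, 9, 1 and 2 in the deletion clones with control shRNA 1, and 7, 5, 1 and 2, and 3, 8, 6 and 4 with control shRNA 2. Under ERH shRNA 1 it had 0, 3, 2 and 8, and 3, 5, 5 and 0, and with ERH shRNA 2 it had 7, 3, 4 and 1, and 2, 0, 4 and 0. All arms of mir-299 overlapped.

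The row mir-376c had 9, 5, 0 and 0, and 1, 14, 8 and 0 counts with control shRNA 1, and 4, 5, 3 and 0, and 5, 5, 5 and 2 with control shRNA 2, again with wild type first. With ERH shRNA 1 it had 1, 4, 0 and 1, and 5, 1, 0 and 5, and with ERH shRNA 2 it had 1, 2, 11 and 0, and 3, 2, 1 and 1. Clone 67 had almost no mir-376c in any library, although its mir-127 level was the highest of the wild-type clones.

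The row mir-381 had 5, 6, 0 and 0, and 0, 8, 1 and 1 counts with control shRNA 1, and 6, 6, 0 and 5, and 4, 7, 3 and 0 with control shRNA 2. Libraries with ERH shRNA 1 had 4, 5, 2 and 10, and 0, 0, 7 and 1, and with ERH shRNA 2 it had 0, 3, 5 and 0, and 0, 11, 1 and 2. High and low libraries occurred in both arms.

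The row mir-411 had 2, 0, 0 and 6, and 1, 9, 0 and 4 counts with control shRNA 1, and 6, 4, 0 and 0, and 3, 19, 2 and 7 with control shRNA 2. With ERH shRNA 1 it had 1, 1, 0 and 9, and 1, 6, 3 and 8, and with ERH shRNA 2 it had 0, 0, 2 and 5, and 0, 2, 0 and 1. Clone 34 gave the highest control values.

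The knockdown was next read within each genotype. In the wild-type clones none of 5 tested members was called by edgeR or by DESeq2, and 1, mir-127, had an unadjusted p under 0.05, beside 31.3 percent of all rows called and 43.6 percent at that unadjusted level. Its change was -0.90 ± 0.40 (SE, adjusted p = 0.0951), and it was lower in 4 of 4 clones. In the deletion clones none of 7 tested members was called by either tool, and 4 had an unadjusted p under 0.05, beside 10.3 percent and 29.7 percent of all rows. There mir-127 had a change of -1.51 ± 0.60, mir-369 of -1.70 ± 0.74, mir-432 of -1.52 ± 0.64 and mir-376b of -2.97 ± 1.061 (SE), with adjusted p-values from 0.0954 for mir-376b to 0.158 for mir-369. Without clone 43 these 4 rows were called. The count of all rows called also rested on single clones, with 30 without clone 30, 119 without clone 34, 38 without clone 42 and 44 without clone 43 in place of 65.

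The row mir-376b rested on the fewest counts of the 4. It stood at 2.60, 1.56, 2.91 and 0 CPM in clones 30, 34, 42 and 43 with control shRNAs, from 13, 9, 13 and 0 counts. With ERH shRNAs it stood at 0, 0, 0.608 and 0.170 CPM, from 0, 0, 3 and 1 counts. Clone 43 was at 0 under control shRNAs, so the arms overlapped. The row was high enough to test in these clones only through its control counts. That favours a low estimate, so its size and p-value are not separate support for a fall. In wild type, where it was too low to test, it was 0.747, 1.34, 0 and 0.280 CPM with control shRNAs and 0.470, 0, 0.732 and 0.671 CPM with ERH shRNAs. In the deletion clones mir-127 and mir-432 also needed control counts to enter the fit. Their ERH sums held 2, 6, 16 and 9 counts for mir-127 and 1, 5, 14 and 6 for mir-432. The control sums held 16, 54, 24 and 7, and 7, 46, 25 and 4. Low estimates were thus favoured for these rows too, and for the 4 calls without clone 43.

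The change with knockdown was not shown to differ between genotypes. In the interaction test edgeR called 0 of 9 members and 0 of 667 rows (0 percent), with 0 members and 127 rows (19 percent) at an unadjusted p under 0.05, and DESeq2 called 0 members and 16 rows. The interaction estimate for mir-127 was -0.55 ± 0.69 (SE, adjusted p = 0.732).

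The ERH shRNAs were also compared one by one, each with the control shRNA of its number, over single libraries. For ERH shRNA 1 none of 5 tested members was called by edgeR or DESeq2, 1 had an unadjusted p under 0.05, and the shares of all rows were 28.3 percent and 42.2 percent. With ERH shRNA 2, mir-127 was called lower, 1 of 4 tested members, beside 20.1 percent of all rows called and 6.87 percent called lower. Its change was -1.60 ± 0.53 with ERH shRNA 2 (SE, adjusted p = 0.0365) and -0.75 ± 0.65 with ERH shRNA 1 (SE, adjusted p = 0.380). The difference between the 2 shRNAs was not tested. The call with ERH shRNA 2 was lost when clone 30, 34, 42, 55, 57 or 67 was left out.

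The 2 control shRNAs give the level of difference found without a target. None of 5 tested members and none of 571 rows (0 percent) was called between them by edgeR, with 0 members and 48 rows (8.41 percent) at an unadjusted p under 0.05, and DESeq2 called 0 members and 1 row. The mir-127 estimate was 0.56 ± 0.44 and the mir-369 estimate 0.58 ± 0.52 (SE). Over single libraries the knockdown estimates for ERH shRNAs 1 and 2 were -0.75 ± 0.65 and -1.60 ± 0.53 for mir-127. For mir-369 they were -1.11 ± 0.67 and -1.21 ± 0.66 (SE). The vector-to-vector estimates were smaller in size and of opposite sign, and came nearest in size to mir-127 with ERH shRNA 1. These comparisons share control libraries.

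The DGCR8 deletion left the members without a called change. Under control shRNAs edgeR and DESeq2 each called 0 of 5 tested members, none of which had an unadjusted p under 0.05, beside 25.9 percent and 40.7 percent of all rows by edgeR. The estimates were -0.71 ± 0.58 for mir-127, 0.59 ± 0.60 for mir-369, -0.06 ± 0.75 for mir-432, 0.19 ± 0.60 for mir-494 and 0.06 ± 0.82 for mir-376c (SE). With 4 clones on each side and SEs of 0.58 or more, differences well above 1 SE could also be missed at this depth. The mir-127 estimate of -0.71, for example, had an unadjusted p of 0.244 by edgeR. The clone values overlapped between genotypes for each of these rows.

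Under ERH shRNAs only mir-127 and mir-494 were high enough to test for the deletion. Neither was called by edgeR or DESeq2, and edgeR called 0 of 569 rows (0 percent) with 87 (15.3 percent) at an unadjusted p under 0.05, while DESeq2 called 8 rows. The mir-127 estimate was -1.34 ± 0.61 (SE, unadjusted p = 0.0492, adjusted p = 0.320), from 3.24 CPM or less in the deletion clones and 1.46 to 6.21 CPM in wild type.

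Deletion clones with ERH shRNAs were set against wild-type clones with control shRNAs to read both changes together. The row mir-127 was called lower, 1 of 4 tested members, beside 46.8 percent of all rows called and 16.5 percent called lower. Its change was -2.19 ± 0.60 (SE, adjusted p = 0.00954), with 0.454 to 3.24 CPM against 2.63 to 13.5 CPM, ranges that overlapped through clones 42 and 57. The estimates for mir-432, mir-369 and mir-494 were -1.59 ± 0.75, -1.20 ± 0.54 and -0.76 ± 0.71 (SE), with adjusted p-values of 0.101, 0.0843 and 0.395. This comparison shares its wild-type control samples with the deletion comparison under control shRNAs and its ERH samples with the knockdown in deletion clones.

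**Figure D3:**
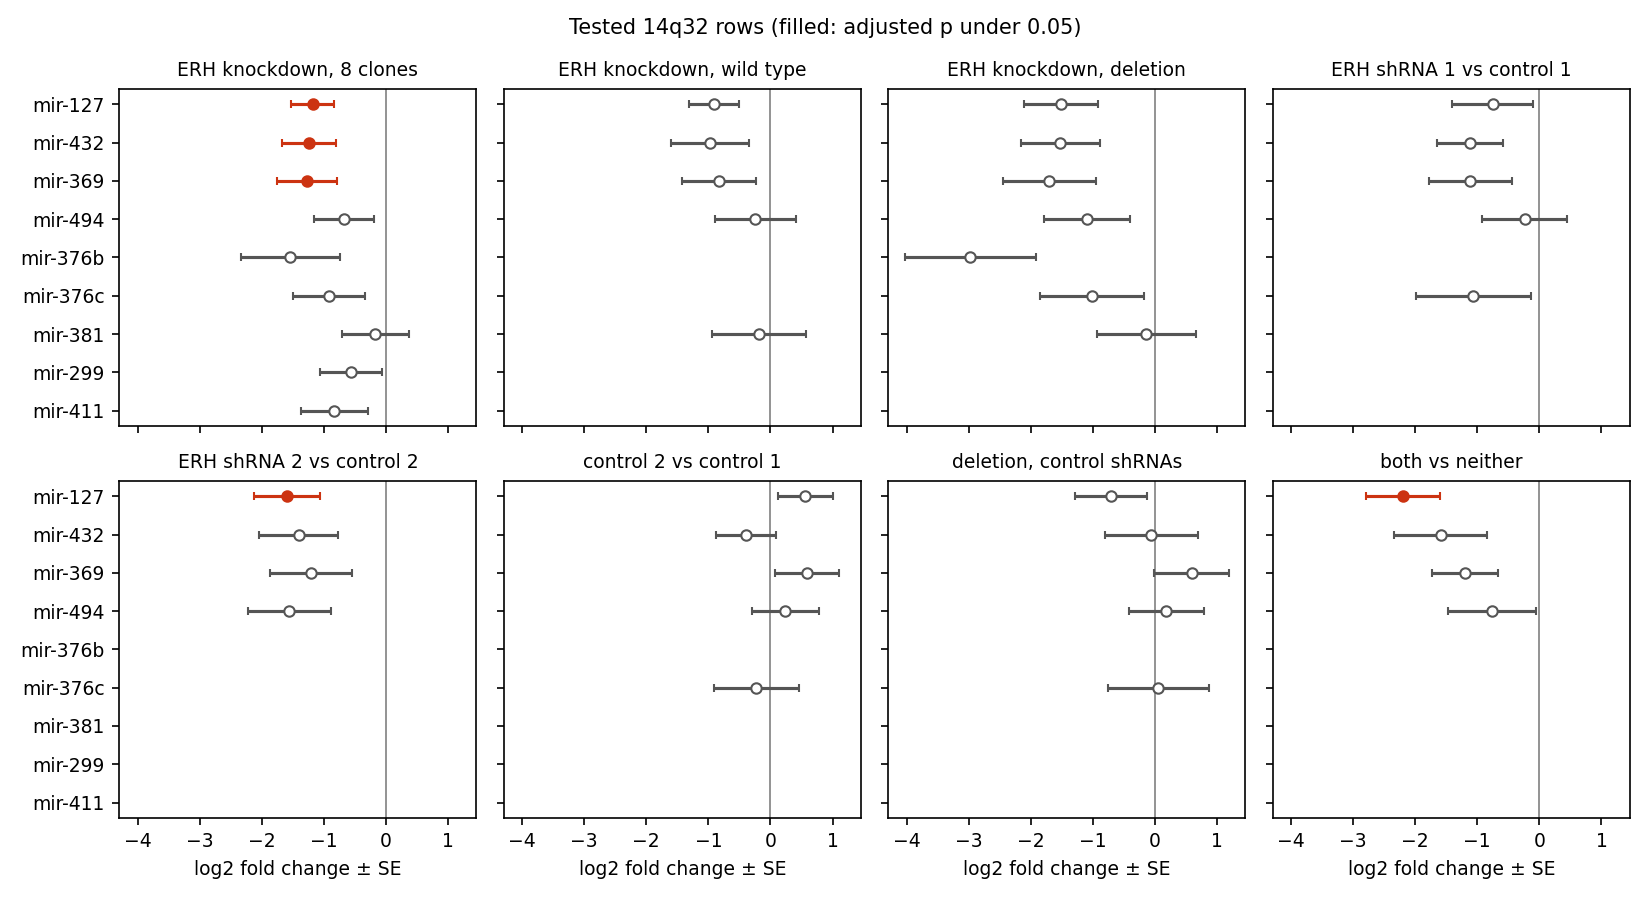
Log2 fold change ± SE (x axis) of the tested members (y axis) in 8 comparisons, with filled red points for an adjusted p under 0.05. The knockdown estimates lie left of 0, as do those of both changes against neither, while the deletion and the 2 control shRNAs give estimates on both sides. With the spike-in and total scalings the mir-381 estimate of the knockdown over 8 clones lies right of 0.

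Clones of one genotype also differed among themselves. In a test of the differences among clones within genotypes over all 32 libraries, mir-432 was called (adjusted p = 0.0203), 1 of 5 tested members, beside 45.9 percent of all rows. Mean levels of mir-432 over the 4 libraries of a clone ran from 0.63 CPM in clone 57 to 4.33 CPM in clone 52 of the wild type, and from 0.77 CPM in clone 30 to 4.43 CPM in clone 34 of the deletion. For mir-127 the means ran from 1.86 CPM in clone 57 to 8.76 CPM in clone 67, and from 1.37 CPM in clone 43 to 5.31 CPM in clone 34 (adjusted p = 0.0805). The call for mir-432 was lost without clone 30, 42 or 57 and with the spike-in scaling, and mir-127 was called without clone 42.

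Some marker miRNAs, of kidney and of other cell types, were also lower with knockdown. Of 8 markers of epithelial or kidney cells all had counts, and their sum per clone and arm ran from 30738 to 55246 CPM in the deletion clones and 48735 to 92717 CPM in wild type with control shRNAs. With ERH shRNAs it ran from 24112 to 47009 CPM and from 39570 to 58515 CPM. Most of this sum came from mir-10a, mir-196a and mir-10b, with medians of 30339, 7583 and 7169 CPM over the 32 libraries. The medians of mir-192, mir-194, mir-141, mir-200c and mir-200b were 1407, 537, 102, 51.2 and 0.678 CPM. Of 14 markers of other cells, mir-367 of pluripotent cells was at 0 and the other 13 had counts. The sum of the 14 ran from 3860 to 11720 CPM in the deletion and 6183 to 10848 CPM in wild type with control shRNAs, and from 3370 to 8769 CPM and 4217 to 8885 CPM with ERH shRNAs. Most of that sum was mir-9, with a median of 5102 CPM over the 32 libraries, so neither sum describes its list evenly. With knockdown 5 of 8 epithelial or kidney markers tested were called lower: mir-10a, mir-10b, mir-141, mir-192 and mir-194. Of the markers of other cells 10 could be tested and 5 were called lower: blood mir-142 and mir-451a, neural mir-9, liver mir-122 and muscle mir-133a. Of all 667 rows tested, 16.5 percent were called lower. With spike-in scaling, tried after seeing the data, only mir-192 of these 10 markers was still called, and with total scaling only mir-192, mir-451a and mir-133a. The estimates of mir-9, mir-10a, mir-141 and mir-194 were above 0 with spike-in scaling, and that of mir-9 also with total scaling.

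The liver miRNA mir-122 followed the 14q32 sum from clone to clone, a row singled out after its values were seen. With control shRNAs it stood at 532, 425, 170 and 411 CPM in clones 52, 55, 57 and 67 and at 262, 615, 462 and 83.8 CPM in clones 30, 34, 42 and 43. With ERH shRNAs it stood at 139, 281, 114 and 442 CPM, and at 72.4, 126, 243 and 157 CPM. Ranked by level, all 8 clones held the same place for mir-122 as for the 14q32 sum with control shRNAs, and 6 of 8 did so with ERH shRNAs. How many other rows rank the clones in this way was not counted. A match of a row chosen after its values were seen is description only. It too was lower with knockdown in 6 of 8 clones and higher in clones 67 and 43. Its fitted knockdown change was -0.91 ± 0.25 (SE, adjusted p = 0.00729), and -0.43 with spike-in and -0.63 with total scaling (adjusted p = 0.358 and 0.0845).

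Relative to mir-122, the 14q32 sum spanned a narrower range. It equalled 6.84% to 13.1% of the mir-122 level with control shRNAs, with a mean of 9.18 ± 1.79 (SD, n = 8 clones), and 6.71% to 10.8% with ERH shRNAs, with a mean of 9.21 ± 1.22. On this relative scale the means of the arms differed by less than the spread between clones. Because mir-122 was singled out after its values were seen to follow the sum, that similarity is description only. The red cell miRNA mir-451a, with 2.67 to 27.5 CPM under control shRNAs, had a knockdown change of -1.20 on the log2 scale and was also called. Relative to mir-451a the sum was 263% ± 80.7 with control shRNAs and 334% ± 158 with ERH shRNAs (SD, n = 8 clones). Relative to mir-335 it was 600.3% ± 225 and 595% ± 264, so the spread was wider for its mean than relative to mir-122. The mir-335 row held only 336 counts over all libraries, while mir-122 stood at 72.4 CPM or more in every sum. Fewer counts widen such a ratio by themselves, so the narrower ratio is not shown to be particular to mir-122. The part of these markers in the lower 14q32 levels was not tested. The tables do not separate miRNAs made by the cells from any that came with the serum of the medium, and this was not tested.

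**Figure D4:**
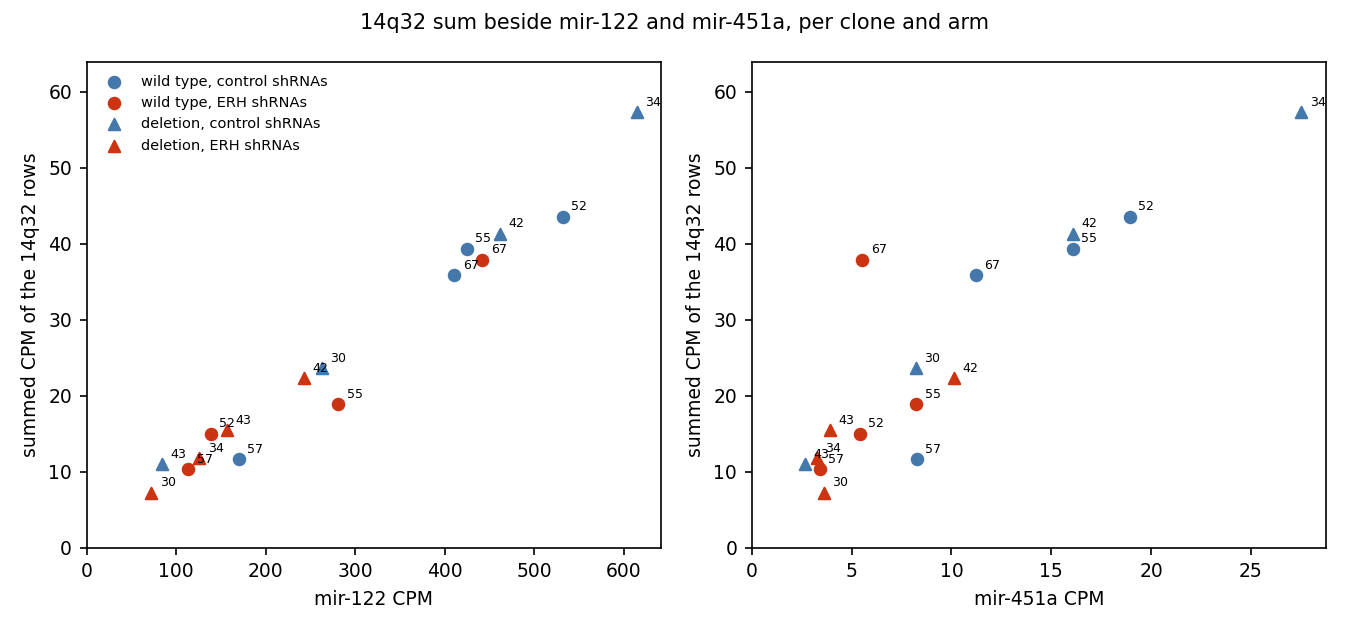
Summed CPM of the 14q32 rows (y axis) against mir-122 CPM (left) and mir-451a CPM (right) for each clone and arm, with wild type as circles, deletion as triangles, control shRNAs in blue and ERH shRNAs in red. On the left the 16 points lie along a line from clone 30 with ERH shRNAs (7.26 and 72.4 CPM) to clone 34 with control shRNAs (57.3 and 615 CPM), and red and blue points share that line.

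Other imprinted miRNAs were read the same way. The placental cluster of chromosome 19 had 25 rows with 236 counts in all, and none could be tested in any comparison. Of mir-675, mir-483, mir-335, mir-296 and mir-298, 3 rows could be tested for the knockdown and 1 fell, beside 16.5 percent of all rows called lower. That row was mir-335, hosted by the imprinted gene MEST, with a change of -0.83 ± 0.30 (SE, adjusted p = 0.0332). In deletion clones with ERH shRNAs against wild type with control shRNAs, mir-335 (-1.61 ± 0.48, adjusted p = 0.0165) and mir-296 (-0.54 ± 0.19, adjusted p = 0.0322) were lower. There too 16.5 percent of all rows were called lower. None of these calls passed with spike-in or total scaling, and the mir-296 estimate was 0.09 with the spike-in RNAs.

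Rows of 14q32 outside the imprinted list were in part far more abundant. The row mir-342, from an intron of EVL, had a median of 3632 CPM and mir-345 one of 345.1 CPM over the 32 libraries, against 18.8 CPM for all 44 imprinted rows together. Of 7 such neighbours 5 could be tested for the knockdown, and mir-345 (-0.38 ± 0.12, adjusted p = 0.0211) and mir-203a (-0.71 ± 0.20, adjusted p = 0.00810) were lower. Of all rows, 36.6 percent were called and 16.5 percent called lower. The mir-203a change was -1.11 ± 0.22 in wild type (adjusted p = 0.00120) and -0.24 ± 0.23 in the deletion clones (adjusted p = 0.542). A difference between genotypes was not called (interaction adjusted p = 0.158). This row also differed among clones of a genotype (adjusted p = 9.3e-14). Under control shRNAs the deletion lowered 1 of 4 tested neighbours, mir-342 (-0.63 ± 0.19, adjusted p = 0.0270). In that comparison 38 of all 536 rows were called lower, against 0 with spike-in and 4 with total scaling, where the median of all rows was 0.42 and 0.39 in place of -0.03. The mir-342 call and the knockdown calls over all clones for mir-345 and mir-203a did not pass with either scaling. The mir-345 estimate was 0.08 with the spike-in RNAs.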

How the data were processed

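Small RNA of 32 sorted 293T populations was made into QIAseq miRNA libraries from 100 ng of RNA, per the labels' protocols, after 4 spike-in RNAs had been added to 400 ng. The authors deposited raw read counts per miRNA gene name. SAMtools is named in the submitters' processing notes. The aligner, the miRNA annotation and whether molecular identifiers were collapsed are not given in the sources used here. Libraries held 1318923 to 6222790 miRNA counts, and intervals cover counting error only.

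Counts of the 2 libraries that a clone had in an arm were added. Rows passing filterByExpr were tested with edgeR 4.0.16 (quasi-likelihood test, TMM, R 4.3.3), with Benjamini-Hochberg adjustment over all rows tested and a threshold of 0.05. Fits within a clone had the clone as a block, because the labels give each clone all 4 vectors, and the 2 arms of a clone deviated together from their group means (correlation across rows 0.35 to 0.69 in the 8 clones). DESeq2 1.42.0, spike-in and total scaling, no filter, a mean of at least 100 counts, no block, single libraries and leaving out each clone were alternatives. The scripts were tested on simulated data. Whether the libraries of a clone are independent cultures beyond their separate transfections is not stated. The p-values of fits with the clone as a block measure the spread, over these clones, of the change within a clone. Those of the deletion comparisons and of both changes against neither measure the spread between these clones. The test among clones measures against the spread between libraries of a clone. No 2 libraries of a group agreed within sampling noise.

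Positions came from GENCODE 29 (GRCh38), sequences from RefSeq (GRCh38.p14), and folding energies from RNAfold 2.7.2. Rows that entered a test are named, and counts per library are given for called rows and the 8 highest by mean CPM. The members, the marker, imprinted and neighbour lists and the tests were chosen with earlier results of these data known.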

Additional observations from a re-analysis of the deposited data

Results flagged for a closer look

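In 2 of 40 groups of 4 clones examined, 1 clone stood far from the other 3. For independent, normally distributed values chance alone gives this in about 1 of 20 groups. These values rest on low counts and include the sum of the rows, so the rate for them was not determined. In wild-type clones with ERH shRNAs, mir-299 was lowest in clone 57 at 0.732 CPM, from 6 counts, while clones 52, 55 and 67 stood at 1.64, 1.59 and 1.51 CPM. In the same group mir-411 was highest in clone 67 at 2.35 CPM, from 14 counts, while clones 52, 55 and 57 stood at 0.235, 0.266 and 0.244 CPM, from 1, 1 and 2 counts.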

How the results depend on the processing

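For the knockdown over all clones, 0 members were called with spike-in scaling, 0 with total miRNA scaling and 0 without the replicate block in place of 3, and 1 to 3 when a clone was left out. The knockdown in wild type gave 1 call with each library as its own sample in place of 0. The knockdown in deletion clones gave 2 without a count filter in place of 0, and 0 to 4 with a clone left out. Both changes against neither gave 3 with DESeq2 in place of 1, and 1 to 2 with a clone left out. ERH shRNA 1 gave 0 to 1 with a clone left out. ERH shRNA 2 gave 2 with DESeq2, 0 with spike-in scaling and 0 with total scaling in place of 1, and 0 to 2 with a clone left out. The test among clones gave 2 with DESeq2, 0 with spike-in scaling, 2 with total scaling and 3 without a filter in place of 1, and 0 to 1 with a clone left out. The mir-381 knockdown estimate turned positive with spike-in scaling (0.31), total scaling (0.10) and without clone 30 (0.050) or 52 (0.053), and ran from -0.37 to 0.053 with a clone left out. The mir-127 interaction ran from -1.10 to 0.024, positive without clone 34. Over all rows, the knockdown in all clones gave 111 calls without the block and 159 without clone 55 in place of 244, the knockdown in wild type 126 without clone 55 and 112 without clone 57 in place of 192, the deletion under control shRNAs 83 without clone 34 in place of 139, ERH shRNA 1 100 without clone 52 in place of 166, ERH shRNA 2 55 and 54 without clones 55 and 57 in place of 117, and the knockdown in deletion clones 102 with spike-in scaling and 109 with total scaling in place of 65. Leaving out a clone moved that count of 65 to between 30 and 119. With spike-in scaling, added after seeing the data, the knockdown estimates of mir-9 (0.19), mir-10a (0.098), mir-141 (0.045), mir-194 (0.068) and mir-345 (0.081) and the mir-296 estimate for both changes against neither (0.093) turned positive, as did mir-9 with total scaling (0.0023). The cause was not tested.

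No member had a mean of 100 counts, so that filter gave no value. Deletion under ERH shRNAs and both changes against neither gave none with single libraries or a single shRNA, nor did ERH shRNA 1 without the block. At this depth 35 of 44 rows entered no test.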
